A study of Mus musculus and Sus scrofa with 12 samples.

Results

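The 39 genes described here encode ligands and receptors of the axon guidance families: semaphorins, Slits, netrins and the proteins that bind them. They were taken as a named list of 20 semaphorins, 3 Slits and 2 netrins (25 ligands) and of 7 plexins, neuropilin 1, 3 Robos and 3 netrin receptors (14 receptors), with no threshold on a measured value. All 39 were annotated in both species, among 21774 coding genes in mouse and 20661 in pig, and all 39 were among the 14946 genes paired between the species by symbol. Gene symbols are written in the mouse style for both species.

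The study mapped 3 histone marks in the embryonic forelimb of wild-type mouse at E11.5 and wild-type pig at day 23, from embryos obtained by natural mating. The libraries were made by ChIPmentation, in which chromatin bound by an antibody is tagged with sequencing adapters by a transposase while still on the beads. Of the marks, H3K4me3 is typical of promoters, H3K27ac of promoters and enhancers in use, and H3K4me1 of enhancers, primed ones included, and of sequence beside promoters. Whole forelimbs were used, so each peak list is drawn from a mixture of mesenchyme, ectoderm, vessels, muscle precursors and ingrowing nerves, and a mark carried by few cells cannot be told apart from a weak mark in many.

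Guidance ligands are secreted or membrane-bound proteins that attract or repel growing axons, migrating cells and sprouting vessels. Secreted semaphorins act through neuropilins and plexins, membrane semaphorins mostly through plexins directly, Slits through Robos, and netrins through Dcc and the Unc5 proteins. In the limb bud, mesenchymal semaphorins steer motor and sensory axons as these enter the limb, and plexins, neuropilins and Robos also act in vessels.

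Each species and mark is held as 1 consensus peak list made from 2 labelled samples, so there is no replicate spread and no difference below has a statistical test. The lists held between 18353 and 103373 peaks, and the pig peaks were narrower: their median width was 1164 bp for H3K27ac and 1679 bp for H3K4me3, against 2928 bp and 3308 bp in mouse. Species, stage, library, peak width and gene annotation therefore cannot be told apart in any comparison of mouse with pig. For pig H3K4me1 the study states a single biological replicate, split into technical replicates, but its 2 samples are labelled as separate biological replicates. Which of these is right could not be told. Of the limb mesenchyme genes, 10 of 10 carried both H3K4me3 and H3K27ac at a start site in mouse and 9 of 10 in pig, where PRRX1 carried neither. H3K27ac was found at 1 of 10 neuronal genes in mouse and 0 of 8 annotated in pig, at 2 and 1 of 11 endothelial genes, at 1 of 8 and 0 of 8 neural crest and glial genes, at 3 of 8 muscle precursor genes in each species, and at 2 of 10 and 4 of 8 ectoderm genes. H3K4me3, by contrast, lay at 8 of 10 and 5 of 8 of those neuronal genes and at 10 of 11 and 6 of 11 of the endothelial genes.

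A gene was scored as carrying a mark where a peak overlapped, by at least 1 bp, the stretch from 1 kb before to 1 kb after any of its annotated transcription start sites. H3K4me3 lay at 37 of the 39 genes in mouse and 36 in pig, against a background of 65.0% and 64.9% of all coding genes. H3K27ac lay at 23 genes in mouse (59.0%) and 19 in pig (48.7%), against 41.6% and 46.7%, so the pig share was near the background. H3K4me1 lay at 27 genes in mouse (69.2%) and 30 in pig (76.9%), against 54.7% and 61.3%. Among the 14946 paired genes, a closer background, the shares in mouse and pig were 81.9% and 77.9% for H3K4me3, 52.1% and 55.6% for H3K27ac, and 68.9% and 72.4% for H3K4me1. Against these the members' H3K27ac share was higher in mouse and lower in pig, but the mouse direction turned when only the 5′ end of each gene was scored. H3K27ac then lay at 14 members in mouse (35.9%) and 13 in pig (33.3%), against 47.8% and 51.6% of paired genes. The members had a median of 3 annotated starts in each species, against 2 for the paired genes.

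All 14 receptors carried H3K4me3 in both species, while 23 of 25 ligands did in mouse and 22 in pig. H3K27ac lay at 16 of 25 ligands (64.0%) and 7 of 14 receptors (50.0%) in mouse, and at 12 ligands (48.0%) and 7 receptors (50.0%) in pig. H3K4me1 lay at 19 ligands and 8 receptors in mouse, and at 19 ligands and 11 receptors in pig. The ligands thus had the higher H3K27ac share in mouse alone, and no test of that difference was possible.

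**Figure D1:**
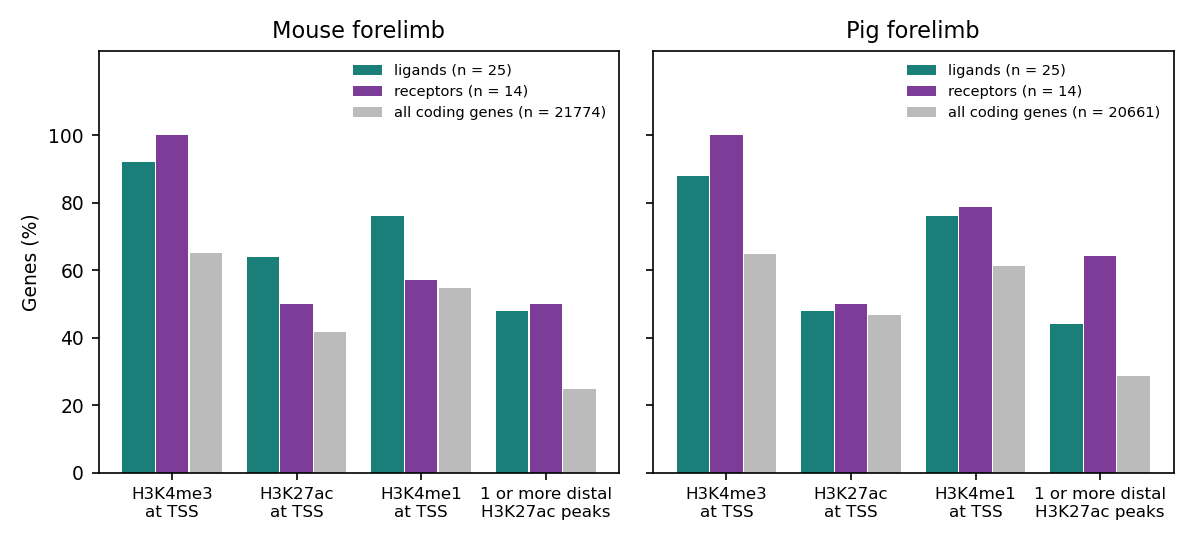
Share of ligands (25), receptors (14) and all coding genes with each mark within 1 kb of a start site, and with at least 1 distal H3K27ac peak, in mouse (left) and pig (right). Receptors reach 100.0% for H3K4me3 in both species, while the pig H3K27ac bars of ligands (48.0%), receptors (50.0%) and all coding genes (46.7%) stand close together.

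Between the species, H3K4me3 lay at 35 of the 39 genes in both, at 2 in mouse alone (Sema4a and Sema4g), at 1 in pig alone (Sema3g) and at 1 in neither (Sema3b). The same classes held 74.7%, 7.17% and 3.15% of the paired genes for both species, mouse alone and pig alone. H3K27ac lay at 15 genes in both species, at 8 in mouse alone and at 4 in pig alone, against 42.5%, 9.57% and 13.1% of paired genes. The 8 were Sema3a, Sema3c, Sema3d, Sema3f, Sema4d, Sema5b, Slit2 and Plxnc1, of which 7 are ligands, and the 4 were Sema4f, Sema7a, Slit3 and Unc5b. At the 5′ end alone H3K27ac lay at 7 in both, 7 in mouse alone and 6 in pig alone, and the share in both, 17.9%, was below the 37.5% of paired genes. H3K4me1 lay at 22 genes in both, 5 in mouse alone and 8 in pig alone, against 54.9%, 13.9% and 17.4%. These H3K4me1 counts depended on the setting: they were 33, 3 and 1 with a window of 2.5 kb and 7, 8 and 6 with each peak cut to its middle 1 kb. The H3K4me3 counts in 1 species alone rest on few genes, and with the 5′ end alone they were 6 for mouse and 5 for pig. The full combination of marks was identical in mouse and pig at 16 of 39 genes (41.0%), against 48.8% of paired genes. All 3 marks were present in both species at 8 genes, against 26.2% of paired genes: Sema4b, Sema6c, Sema6d, Ntn4, Plxnb1, Plxnb2, Robo1 and Robo2. These calls pool all starts of a gene. No single start carried all 3 at Robo2 in either species, at mouse Robo1, at mouse Sema6d or at pig Sema4b.

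**Figure D2:**
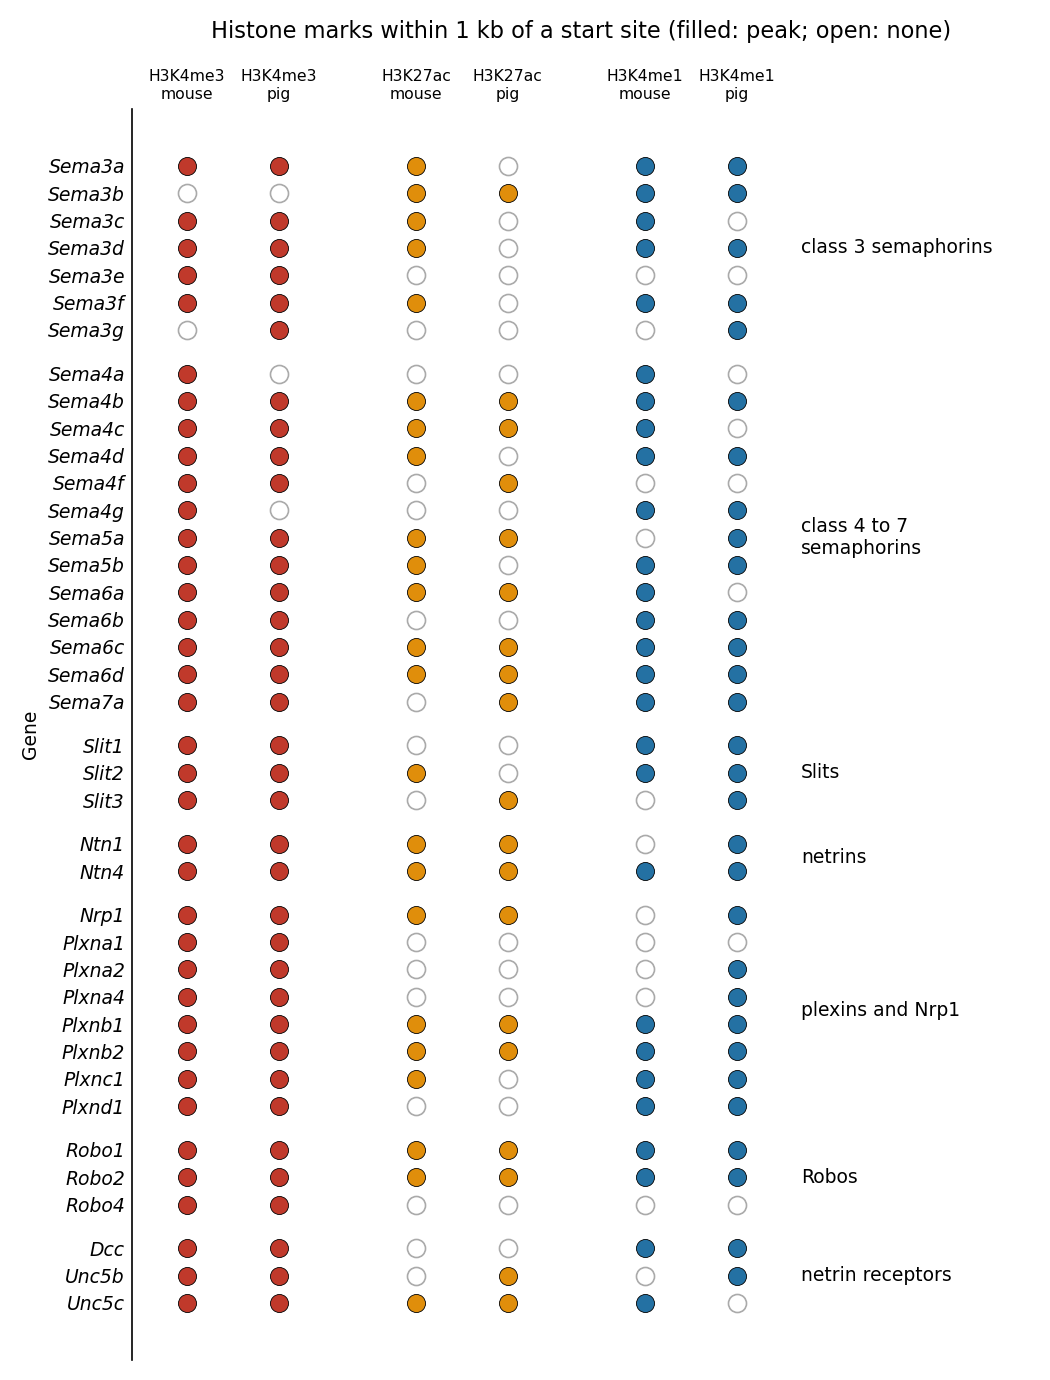
Marks at the start sites of each of the 39 genes, in rows grouped by family; columns give each mark in mouse and pig, filled circles a peak within 1 kb and open circles none. The class 3 semaphorins show 5 filled circles for H3K27ac in mouse and 1 in pig.

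Of the 7 class 3 semaphorins, the secreted ligands that bind neuropilins, 5 carried H3K27ac in mouse and 1, Sema3b, did in pig; this group was singled out after its values were seen. Sema3a, which repels motor and sensory axons, carried H3K27ac at its 5′ end and at a start 274 kb inside the gene in mouse, whereas in pig it had H3K4me3 at its 5′ end, H3K4me1 at starts 198 and 287 kb inside the gene, and its nearest H3K27ac peak 153 kb from a start. For Sema3c, which also guides cells of the outflow tract, Sema3d and Sema3f the nearest pig H3K27ac peak lay 269 kb, 500 kb and 58.7 kb away. Pig Sema3f had one of the widest H3K4me3 peaks of the list, 3700 bp, wider than at 98.6% of marked pig genes. Sema3e, a ligand that binds plexin D1 without a neuropilin, carried H3K4me3 alone in both species. The counts of 5 and 1 stayed the same with a window of 2.5 kb, with the 5′ end alone, with the wider 50% of the peaks of each list kept and with an overlap of 200 bp, and were 4 and 1 when each peak was cut to its middle 1 kb, a setting added after seeing the data. Sema3b carried H3K27ac and H3K4me1 without H3K4me3 in both species, a combination found at 0.551% of coding genes in mouse and 1.18% in pig. The nearest H3K4me3 peak to a Sema3b start lay 1.33 kb away in mouse and 1.27 kb in pig, just outside the window.

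The promoter sequences of the 2 class 3 genes that departed from the common H3K4me3 state are shown, printed from 250 bases before to 50 after the start, with each CpG in capitals. The mouse Sema3b start shown is on the minus strand at chr9:107609192-107609491 (GRCm38), the mouse Sema3g start on the plus strand at chr14:31217623-31217922 and the pig Sema3g start on the minus strand at chr13:34585637-34585936 (Sscrofa11.1). All are at the 5′ end of the gene.
Sema3b mouse, no H3K4me3: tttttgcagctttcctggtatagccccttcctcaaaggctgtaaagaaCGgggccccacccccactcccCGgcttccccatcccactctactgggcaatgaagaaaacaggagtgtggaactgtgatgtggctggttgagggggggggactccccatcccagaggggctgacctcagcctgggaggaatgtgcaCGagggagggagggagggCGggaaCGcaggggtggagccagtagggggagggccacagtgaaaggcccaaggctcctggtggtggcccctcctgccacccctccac
Sema3g mouse, no mark: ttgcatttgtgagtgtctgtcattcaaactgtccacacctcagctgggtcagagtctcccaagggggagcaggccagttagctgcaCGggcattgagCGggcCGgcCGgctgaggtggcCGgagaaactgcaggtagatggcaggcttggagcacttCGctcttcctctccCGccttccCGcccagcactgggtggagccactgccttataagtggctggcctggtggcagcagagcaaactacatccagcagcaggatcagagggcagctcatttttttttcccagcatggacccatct
Sema3g pig, H3K4me3 and H3K4me1: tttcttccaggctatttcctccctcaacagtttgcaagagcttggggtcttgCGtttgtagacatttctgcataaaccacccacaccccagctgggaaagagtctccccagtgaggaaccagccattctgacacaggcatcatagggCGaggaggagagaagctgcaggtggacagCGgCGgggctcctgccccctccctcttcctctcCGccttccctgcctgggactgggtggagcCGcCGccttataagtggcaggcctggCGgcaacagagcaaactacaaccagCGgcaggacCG
They hold 5, 8 and 10 CpG sites. Some class 3 genes with H3K4me3 at the 5′ end held as few there, such as mouse Sema3f with 4 and Sema3a with 5 and pig Sema3a with 6. Start sites with H3K4me3 held a median of 19 CpG sites over all coding genes in mouse and 25 in pig, and those without held 3 and 5. Pig Sema3g was the narrowest H3K4me3 peak of the list, 1134 bp.

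Of the 13 semaphorins of classes 4 to 7, which are anchored in the membrane, all 13 carried H3K4me3 in mouse and 11 in pig, and 8 carried H3K27ac in each species. Sema4b, Sema4c, Sema5a, Sema6a, Sema6c and Sema6d carried H3K27ac in both. Sema4d, the ligand of plexin B1, and Sema5b had it in mouse alone, with the nearest pig peak 17.3 kb and 45.4 kb away. The mouse Sema4d start with H3K27ac lay 44.9 kb inside the gene and had no H3K4me3. At the 5′ end Sema4d carried H3K4me3 without H3K27ac in both species, so the contrast was absent there. Sema4f and Sema7a, a lipid-anchored ligand of plexin C1, had it in pig alone, with the nearest mouse peak 15.5 kb and 27.4 kb away. Sema4a, Sema4g and Sema6b had none in either species. Mouse Sema4a had the narrowest H3K4me3 peak of any marked member in that species, 1979 bp, narrower than at all but 2.09% of marked genes.

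Counting any start, Slit2 and Slit3, secreted ligands of the Robos, had opposite H3K27ac states. Slit2 carried it in mouse alone, with the nearest pig peak 297 kb away. Slit3 carried it in pig alone, with the nearest mouse peak 53.8 kb away. The marked starts lay 1.86 kb inside mouse Slit2 and 2.18 and 30.9 kb inside pig Slit3. Neither gene carried H3K27ac at its 5′ end in either species, so the contrast was absent there. Pig Slit2 and mouse Slit3 had 1 annotated start each. Slit1 had none at a start in either species, although in pig a peak lay 1.45 kb from one. Pig Slit2 nonetheless had the widest H3K4me3 peak of the list, 4058 bp, wider than at 99.4% of marked pig genes. Both netrins carried H3K4me3 and H3K27ac in both species: Ntn1, the secreted ligand of Dcc and the Unc5 proteins, had a H3K27ac peak of 5379 bp in mouse and 3095 bp in pig, and Ntn4, a netrin of basement membranes, one of 1527 bp and 2085 bp. The mouse Ntn1 peak lay at the 5′ end, and the pig Ntn1 peak at starts 16.6 kb inside the gene and not at the 5′ end.

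Among the receptors, Nrp1, the co-receptor for class 3 semaphorins and for VEGF, carried H3K27ac in both species under peaks of 4028 bp and 3927 bp. The receptors of membrane semaphorins, Plxnb1 and Plxnb2, also had it in both, and Plxnc1 in mouse alone, with the nearest pig peak 83.2 kb away. The class A plexins Plxna1, Plxna2 and Plxna4, which pair with neuropilins, and Plxnd1 carried H3K4me3, but no H3K27ac, in mouse as in pig. Plxna3, also a class A plexin but not on the list, carried both marks in both species. Plxnd1 had a mouse H3K4me3 peak of 4936 bp, wider than at 95.7% of marked genes. Robo1 and Robo2 carried all 3 marks in both species, but no single start did at Robo2 or at mouse Robo1. Robo4, a Robo of vessels, carried H3K4me3 alone in both species. Unc5c, a repulsive netrin receptor, had H3K27ac in both species, Unc5b, which also acts in vessels, in pig alone, and Dcc, the attractive netrin receptor of neurons, in neither. Dcc carried H3K4me3 and H3K4me1 in both species but lay far from any H3K27ac: the nearest peak was 1070 kb from a start in mouse and 460 kb in pig.

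Several of the genes have starts far apart that did not carry the same marks. In mouse, 9 of the 23 genes with H3K27ac carried it at another start and not at the 5′ end of the gene, and in pig 6 of 19 did. These shares, 39.1% and 31.6%, compare with 8.25% and 7.08% of the paired genes with H3K27ac. Among mouse genes with H3K27ac and 3 or more annotated starts, 8 of 15 members (53.3%) and 14.4% of paired genes did so. For pig genes of that kind the shares were 5 of 13 (38.5%) and 14.9%. Not all of these starts were far from the 5′ end. In mouse the nearest lay 0.907 kb from it at Plxnb1, 1.86 kb at Slit2, 2.32 kb at Sema4c and 2.33 kb at Sema6a. In pig it lay 2.18 kb away at Slit3. At the other genes it lay at least 11.2 kb away in mouse and 12.8 kb in pig. Robo1, Robo2, Sema4b and Sema6d carried H3K27ac at another start and not at the 5′ end in both species. These 4 were picked out after their values were seen. In Robo1 the H3K27ac lay at starts 635 to 636 kb inside the gene in mouse and 734 kb inside it in pig, while the 5′ start carried H3K4me3 without H3K27ac in both. In Sema6d, a membrane ligand of class A plexins, it lay 520 to 522 kb inside the gene in mouse and 542 to 544 kb in pig, again with H3K4me3 but no H3K27ac at the 5′ start. In Sema4b it lay 11.2 to 11.7 kb inside the gene in mouse and 12.8 kb in pig.

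Robo2 was the one gene of the list whose 5′ end lacked H3K4me3 in both species while another start carried it. The marked starts lay 1030 to 1040 kb inside the gene in mouse, under a H3K4me3 peak of 4942 bp, the widest of the list in that species, and 1070 kb inside it in pig, under a peak of 2947 bp. A marked start of each species, of 2 in mouse and 8 in pig, is printed with the unmarked mouse 5′ start. CpG sites are in capitals, and all are on the minus strand. The marked mouse start shown lies at chr16:74411776-74412075 and the unmarked one at chr16:75447394-75447693 (GRCm38). The marked pig start shown lies at chr13:177967215-177967514 (Sscrofa11.1).
Robo2 mouse, marked start: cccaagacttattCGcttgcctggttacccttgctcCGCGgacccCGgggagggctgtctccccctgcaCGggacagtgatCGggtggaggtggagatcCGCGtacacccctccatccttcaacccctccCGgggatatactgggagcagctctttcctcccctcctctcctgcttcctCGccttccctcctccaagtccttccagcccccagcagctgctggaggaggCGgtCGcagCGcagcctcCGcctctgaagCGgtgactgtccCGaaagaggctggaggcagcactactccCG
Robo2 mouse, unmarked 5′ start: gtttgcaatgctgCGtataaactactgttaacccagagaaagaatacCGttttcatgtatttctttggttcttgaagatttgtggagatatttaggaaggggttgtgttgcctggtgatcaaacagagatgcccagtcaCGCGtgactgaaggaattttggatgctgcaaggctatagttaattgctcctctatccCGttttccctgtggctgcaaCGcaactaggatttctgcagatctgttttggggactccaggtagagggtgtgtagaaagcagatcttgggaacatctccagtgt
Robo2 pig, marked start: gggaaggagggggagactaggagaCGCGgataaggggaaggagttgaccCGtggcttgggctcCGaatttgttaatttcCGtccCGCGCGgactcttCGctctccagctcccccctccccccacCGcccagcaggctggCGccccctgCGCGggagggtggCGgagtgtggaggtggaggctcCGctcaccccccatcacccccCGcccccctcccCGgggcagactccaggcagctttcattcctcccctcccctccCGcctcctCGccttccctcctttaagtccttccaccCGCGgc
The marked starts shown hold 17 and 21 CpG sites and the unmarked mouse start shown holds 6. The number of CpG sites did not set marked from unmarked starts apart throughout the gene: the unmarked pig 5′ start, not shown, holds 14, and the other marked mouse start holds 4. Over the members' starts, those with H3K4me3 held a median of 17 CpG sites in mouse (109 starts) and 24 in pig (99 starts), and those without held 5 in both (51 and 75 starts). Starts of a gene that lie close together share most of these bases, so they are not independent.

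At the genes that carried H3K4me3, the widest peak at a start had a median width of 3738 bp for ligands and 3942 bp for receptors in mouse, and of 2464 bp and 2688 bp in pig. The medians over all marked genes were 3502 bp and 1913 bp. Ligands and receptors overlapped over most of their range, from 1979 to 4583 bp and from 2313 to 4942 bp in mouse. Nrp1 stood near the top in both species, at 4934 bp and 3574 bp. Sema5a, a semaphorin with thrombospondin repeats, measured 4583 bp in mouse and 2898 bp in pig, and Sema6a 4558 bp and 3155 bp. Slit2 ranked first in pig and measured 4263 bp in mouse, wider than at 85.6% of marked genes there.

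**Figure D3:**
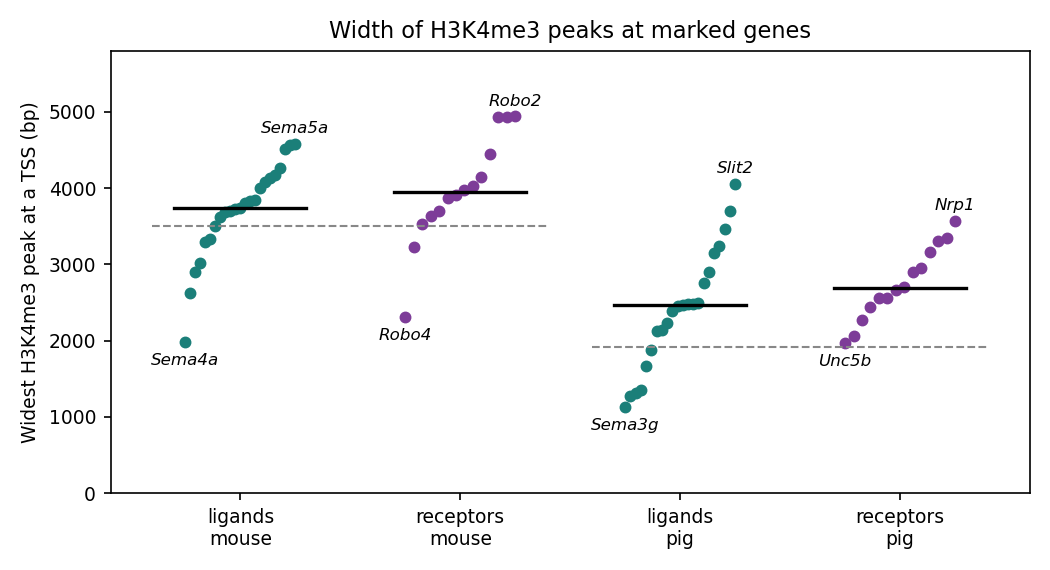
Width in bp of the widest H3K4me3 peak at a start of each marked ligand and receptor in mouse and pig; points are genes in order of width, black lines group medians and dashed lines the median of all marked genes (3502 bp and 1913 bp). The narrowest and widest gene of each group is named; pig receptors all lie above the dashed line, from 1971 bp for Unc5b to 3574 bp for Nrp1.

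Distal H3K27ac peaks, those away from every start window and from H3K4me3, were given to the coding gene with the nearest start within 500 kb. The list received 47 in mouse and 74 in pig, a median of 0 and 1 a gene against a median of 0 over all coding genes in both species. At least 1 such peak was given to 19 genes in mouse (48.7%) and 20 in pig (51.3%), against 24.7% and 28.7% of all coding genes. The members lie in wider spaces, though: the median distance between the flanking starts of other coding genes was 278 kb in mouse and 384 kb in pig, against 93.4 kb and 95.4 kb for all coding genes. Per Mb of that space the list held 1.59 peaks in mouse and 2.12 in pig, against 1.95 and 3.27 over all coding genes. The space includes sequence over 500 kb from a start, which could receive no peak. Pooled over the list, no excess was thus seen per Mb, but the groups differed. Ligands held 2.08 in mouse and 2.23 in pig, and receptors 1.18 and 2.01. In mouse the families ranged from 0.988 for plexins and Nrp1 to 4.31 for netrins. In pig they ranged from 0.0 for netrins to 5.51 for plexins and Nrp1. The ratio of pig to mouse peaks was 1.57 for the list and 1.57 for all coding genes. With the wider 50% of peaks the list received 21 in mouse and 22 in pig, a ratio of 1.05 against 1.25 for all coding genes, and 10 pig genes had one. With a limit of 100 kb it received 21 and 30 peaks.

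The families departed from that common ratio in different directions. Plexins and Nrp1 together held 5 distal peaks in mouse and 29 in pig, while the netrins and their receptors held 10 in mouse and 1 in pig. Class 3 semaphorins held 7 and 2, the other semaphorins 10 and 24, the Slits 8 and 14, and the Robos 7 and 4. With the wider 50% of peaks the plexins and Nrp1 held 4 and 10 and the netrins and their receptors 5 and 0, and with a limit of 100 kb the counts were 2 and 16, and 9 and 0. These groupings were compared after their values were seen. All of these counts, at every setting, hold only peaks scored as distal and given to the gene. Counting instead every H3K27ac peak that overlapped the gene, those at starts included, Unc5c had 6 in mouse and 8 in pig. By that count Unc5b had 2 and 2, Ntn1 1 and 1, Ntn4 3 and 1, and Dcc 0 and 0.

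**Figure D4:**
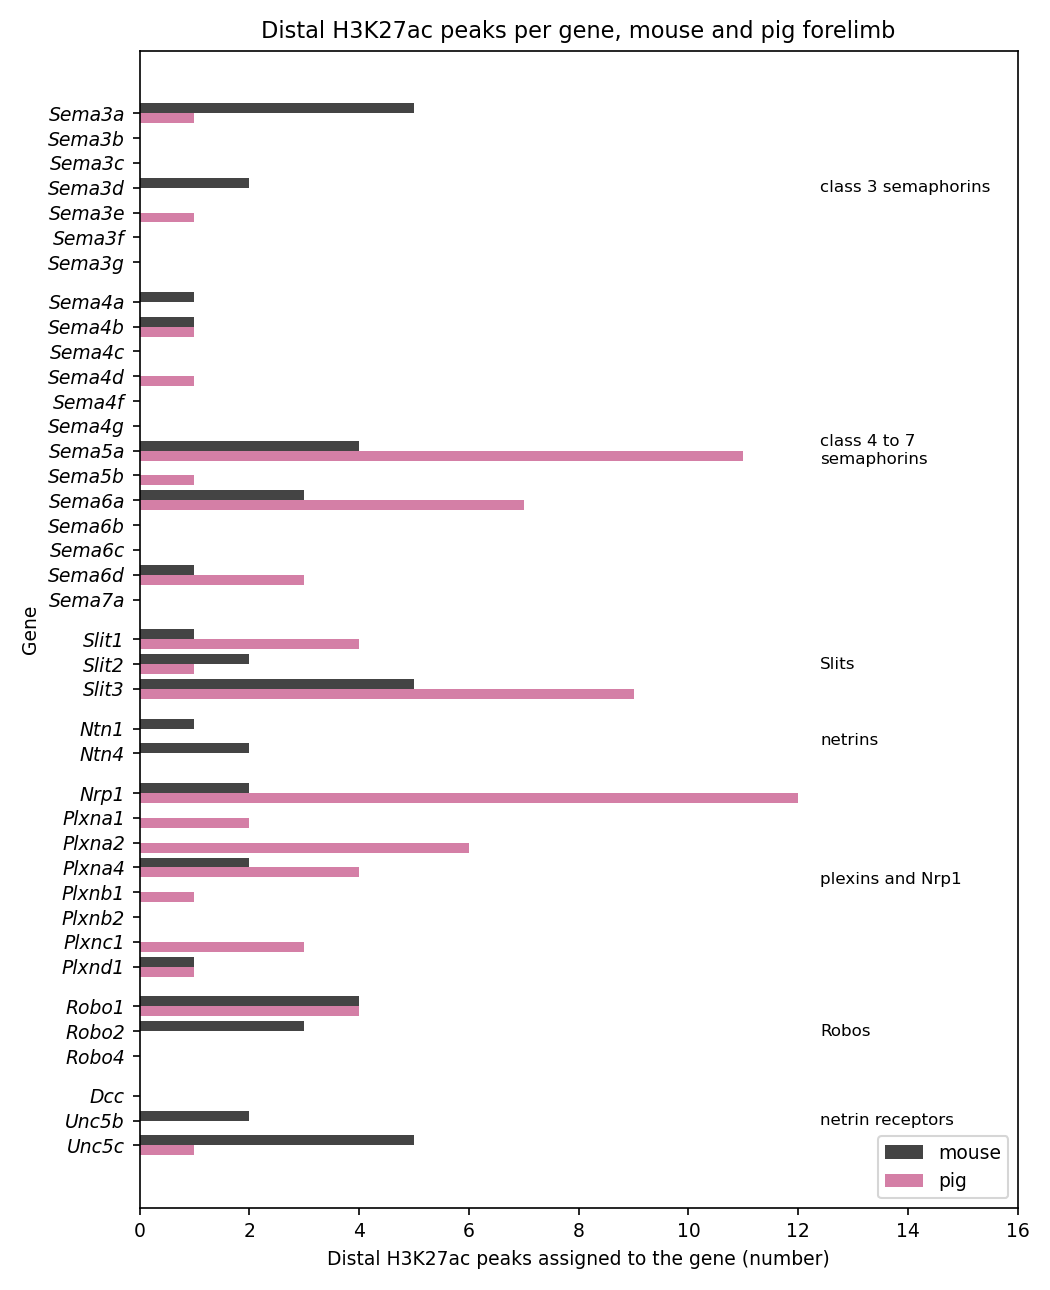
Number of distal H3K27ac peaks given to each of the 39 genes in mouse (dark) and pig (pink), grouped by family. Nrp1 has 2 in mouse and 12 in pig, Plxna2 0 and 6, and Unc5c 5 and 1.

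Nrp1 had 2 distal peaks in mouse, 347 kb from its nearest start, before the gene, and 43.6 kb inside it, and 12 in pig, of which 6 lay before the gene and 6 within it, from 34.1 to 75.7 kb. Pig peaks are narrow, and the 12 covered 7.94 kb against 4.96 kb for the 2 mouse peaks. Plxna2 had none in mouse, where the nearest H3K27ac peak lay 471 kb from a start, and 6 in pig, with H3K4me1 at each. Sema5a had 4 in mouse and 11 in pig, all within the gene, but the length covered was 14.0 kb in mouse and 11.9 kb in pig. Slit3 had 5 and 9, covering 10.2 kb and 8.70 kb. For Sema5a and Slit3 the larger pig count of distal peaks did not go with more sequence covered by those peaks. Counting every H3K27ac peak that overlapped the gene, those at starts included, Sema5a had 6 in mouse and 12 in pig, and Slit3 4 and 16. The length covered by all of these was not computed. Sema6a had 3 in mouse and 7 in pig, on both sides of the gene and within it in each species.

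The opposite pattern was seen at Unc5c and Sema3a. Unc5c had 5 distal peaks in mouse, 4 of them in introns from 26.2 to 84.4 kb past the 5′ end and each with H3K4me1, and 1 in pig, 138 kb past it. The length these covered was 14.3 kb against 0.550 kb. The contrast at Unc5c held only for peaks scored as distal and given to it. Counting every H3K27ac peak that overlapped the gene, those at starts included, Unc5c had 6 in mouse and 8 in pig. Sema3a had 5 in mouse, covering 10.3 kb, and 1 in pig, covering 1.11 kb. Robo1 had 4 in each species, of which 3 lay past the gene in mouse while all 4 lay within it in pig. Robo2 had 3 in mouse and 0 in pig, Unc5b 2 and 0, Ntn4 2 and 0, and Dcc 0 in both species within a space of 3000 kb and 3070 kb between neighbouring starts.

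**Figure D5:**
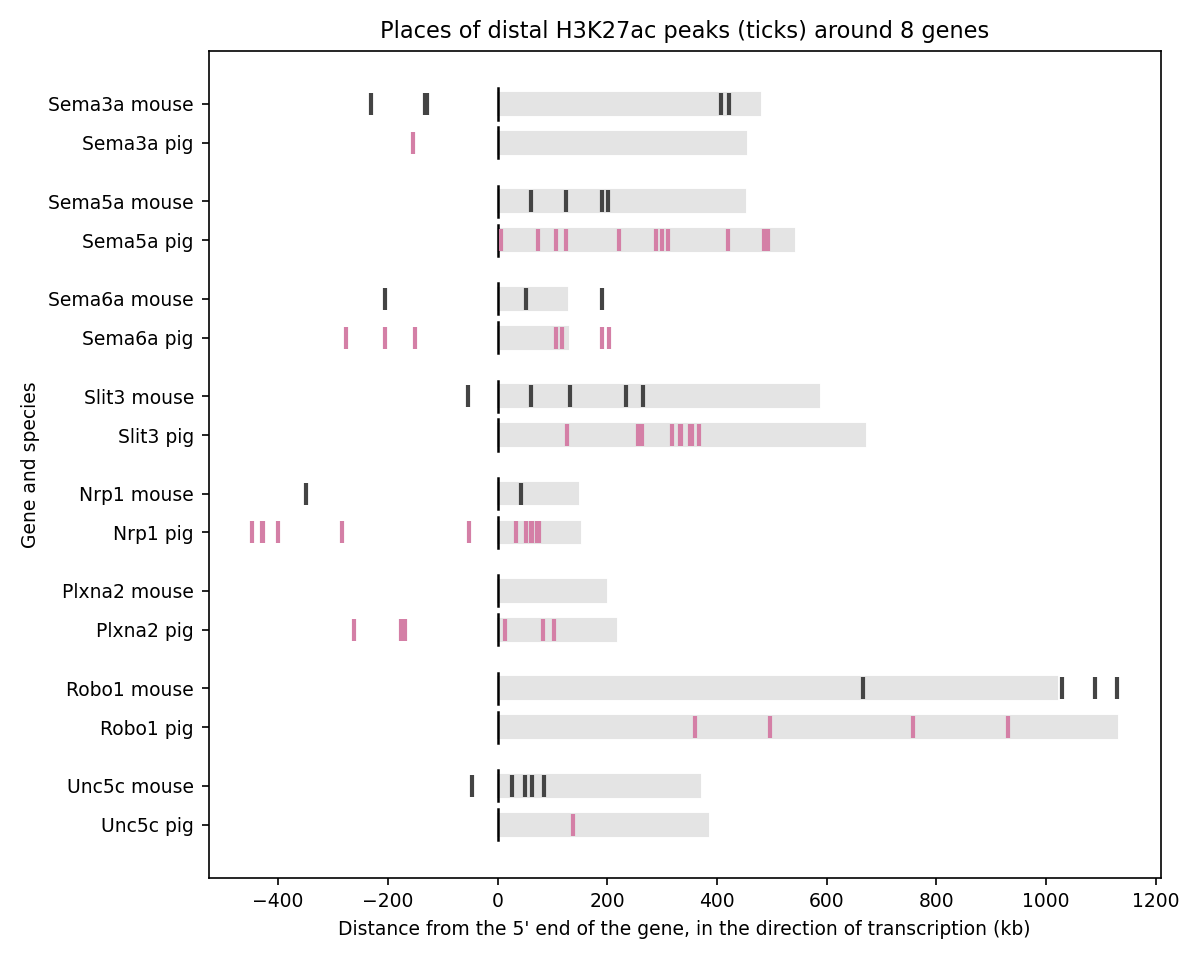
Places of distal H3K27ac peaks (ticks) along 8 genes with the most such peaks in either species, by distance in kb from the 5′ end (black line), with the gene as a grey bar. Slit3 and Sema5a carry their peaks mostly within the gene in both species, and Plxna2 has ticks in pig alone.

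Inside the gene they were given to lay 28 of the 47 mouse peaks (59.6%) and 43 of the 74 pig peaks (58.1%), against 41.9% and 41.5% of distal peaks of all coding genes. The members are long genes, with a median of 123 kb in mouse and 128 kb in pig against 17.2 kb and 19.2 kb. Counting any annotated gene, 32 of the mouse peaks lay in introns, 1 overlapped an exon and 14 lay between genes, and in pig the numbers were 45, 7 and 22. H3K4me1 covered part of 27 mouse peaks (57.4%) and 57 pig peaks (77.0%), against 48.3% and 72.5% of all distal peaks.

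To ask whether the same sequences carried the mark in both species, each distal peak was aligned to the orthologous gene with 500 kb on each side. Of the 47 mouse peaks, 26 (55.3%) matched the pig gene's surroundings, against 47.4% over all paired genes, and for 4 (8.51%) the matching pig sequence lay in a pig H3K27ac peak, against 4.43%. Of the 74 pig peaks, 22 (29.7%) matched, against 30.8%, and 2 (2.70%) in mouse H3K27ac, against 4.28%. All 4 such mouse peaks were at ligands, and none of the 13 matched receptor peaks was among them. At Slit3 and Sema4b the match lay in pig H3K27ac over its whole length, 222 and 351 bp, and was found from both species. At Ntn1 and Sema6a it reached the pig peak by 13 of 94 bp and 22 of 279 bp, so those overlaps were at an edge. The Ntn1 match lay in an intron of the neighbouring gene Stx8 in both species. Among the rest, 12 of the mouse peaks (25.5%) and 13 of the pig peaks (17.6%) matched sequence that carried H3K4me1 without H3K27ac in the other species, against 16.6% and 10.2% over all paired genes. At Unc5c, 4 of 5 mouse peaks matched, and 3 of these matches lay in pig H3K4me1 but none in pig H3K27ac.

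Ungapped stretches of 3 such matches are shown, since they are the sequences that carried, or at Unc5c did not carry, H3K27ac in both species; each pair is in the same orientation and bases that differ between the species are in capitals. The Slit3 stretch lies in an intron of the gene, at chr11:35356499-35356607 (GRCm38, plus strand) and chr16:54816125-54816233 (Sscrofa11.1, plus strand), with 91 of 109 bases identical. The Sema4b stretch lies between genes, at chr7:80171446-80171579 and chr7:55741209-55741342 (both plus strand), with 117 of 134 identical. The Unc5c stretch lies in an intron of that gene, at chr3:141550462-141550609 and chr8:124234482-124234629 (both plus strand), with 111 of 148 identical; the pig sequence carried H3K4me1 alone.
Slit3 mouse: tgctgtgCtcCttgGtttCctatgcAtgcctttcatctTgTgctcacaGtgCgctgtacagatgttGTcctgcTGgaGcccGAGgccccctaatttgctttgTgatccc
Slit3 pig: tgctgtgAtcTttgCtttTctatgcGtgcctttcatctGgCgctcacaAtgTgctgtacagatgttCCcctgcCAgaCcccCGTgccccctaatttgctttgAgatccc
Sema4b mouse: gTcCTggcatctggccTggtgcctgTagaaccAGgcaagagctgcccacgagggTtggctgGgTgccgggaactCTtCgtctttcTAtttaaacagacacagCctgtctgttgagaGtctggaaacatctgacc
Sema4b pig: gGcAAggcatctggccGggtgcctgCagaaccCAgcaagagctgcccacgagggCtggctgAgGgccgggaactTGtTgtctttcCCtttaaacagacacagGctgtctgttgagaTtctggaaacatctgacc
Unc5c mouse: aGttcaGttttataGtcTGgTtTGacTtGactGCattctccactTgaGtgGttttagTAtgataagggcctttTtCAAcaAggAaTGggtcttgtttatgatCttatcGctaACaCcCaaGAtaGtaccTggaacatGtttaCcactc
Unc5c pig: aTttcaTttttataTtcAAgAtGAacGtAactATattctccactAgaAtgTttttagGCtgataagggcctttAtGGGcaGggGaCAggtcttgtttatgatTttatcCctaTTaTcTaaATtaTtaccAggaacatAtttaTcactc

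The wider pathway was described by 50 further genes: other members of these families, co-receptors such as integrins and glypicans, and intracellular effectors such as the collapsin response mediators. H3K4me3 lay at 44 of them in mouse (88.0%) and 43 in pig (86.0%), H3K27ac at 30 (60.0%) and 26 (52.0%), and H3K4me1 at 38 (76.0%) and 43 (86.0%). For H3K27ac the shares of the paired genes were 52.1% and 55.6%, higher than these in pig and lower in mouse. For H3K4me3 the paired genes' shares were 81.9% and 77.9%, and for H3K4me1 68.9% and 72.4%, lower than those of the pathway genes in both species. At least 1 distal H3K27ac peak was given to 20 in mouse (40.0%) and 25 in pig (50.0%), against 24.7% and 28.7% of coding genes, with a median of 0 and 0.5 a gene. The space around these pathway genes was not measured, so no count per Mb can be set beside these shares. Of the 25 intracellular genes, 19 carried H3K27ac in mouse and 16 in pig, the highest share of the 3 groups. Most distal peaks were given, in mouse, to Neo1, a netrin receptor related to Dcc, with 4, and in pig to the guanine nucleotide exchange factors Farp1 and Trio, with 17 each, and the kinase Fyn, with 16. Ntn5, Robo3, which steers axons at the midline, and Rnd1, a GTPase that binds plexins, lacked H3K4me3 in both species.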

How the data were processed

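The deposited files are 6 consensus peak lists, 1 for each of 3 marks and 2 species, whose measurements are peak positions, and no deposited score or read depth was used. Per the series' design text, nuclei were crosslinked with 1% formaldehyde, reads of all mouse libraries and of pig H3K4me1 were 100 bp long and cropped to 50 bp, the other pig libraries were read at 50 bp, and the authors called broad peaks at an irreproducible discovery rate below 0.01 on GRCm38 and Sscrofa11.1. The submitters' processing notes name Trimmomatic 0.39, Bowtie2 2.3.5 and SAMtools 1.9, and they name no peak caller. Samples were grouped by species and mark, 2 in each group. The depth per sample is unknown, so a gene without a peak is one not called at this depth. Genes and start sites came from the RefSeq annotation of the same builds. A start window reached 1 kb each side and an overlap needed 1 bp. Distal peaks were aligned with blastn 2.17.0 at an E value of 1e-10 or lower, with repeats masked, keeping the best match. Promoter bases were read from the RefSeq genomes. The counting and alignment steps were tested on simulated data. Every member is accounted for, and no filter on low values was used. Members were described singly where they lacked H3K4me3 or differed between the species in H3K4me3 or H3K27ac. So were those among the 5 with most distal peaks or widest H3K4me3 in a species, and those with several starts, some marked. Other pathway genes were named where they lacked H3K4me3 in both species or were among the 3 with most distal peaks. Plxna3 was named as a class A plexin outside the list, after its values were seen. Stretches were drawn from mouse peaks. Slit3 and Sema4b were taken because their match lay in pig H3K27ac, so they were chosen with that overlap known. Unc5c was taken as the member with most matched mouse peaks. Slit3 also had most matched peaks in pig. The matches at Ntn1 and Sema6a, which reached the pig peak at an edge, are not printed. The members and gene lists were chosen with earlier results of these data known. Each count was recomputed under other windows, overlaps, peak widths, limits and alignment settings. Analyses used Python 3.11.15, numpy 2.4.6 and pandas 2.3.3.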

Additional observations from a re-analysis of the deposited data

How the results depend on the processing

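Of 171 alternative values of 37 counts, 134 stayed within 1.5 times the reported count and 37 did not; as counts without a replicate spread, none has a test. No paired analysis was possible because each species and mark is held as 1 consensus list, and no replicate could be left out for the same reason. With an assignment limit of 100 kb, distal peaks numbered 21 in mouse and 30 in pig over the members, 11 and 12 at ligands, and 10 and 18 at receptors. With the wider 50% of peaks they numbered 21 and 22, 12 and 12, and 9 and 10; a distal peak was then given to 10 pig members, H3K4me1 lay at 11 mouse ligands, at 7 pig receptors and at 11 members in both species, and H3K4me3 at 3 members in pig alone. With the 5′ end of each gene alone, H3K27ac lay at 14 members, 10 ligands and 4 receptors in mouse and at 7 members in both species, H3K4me1 at 13 members in both, and H3K4me3 at 6 members in mouse alone and 5 in pig alone. With a window of 2.5 kb, H3K4me1 lay at 3 members in mouse alone, 1 in pig alone and 13 mouse receptors, and H3K4me3 at 1 member in mouse alone. With each peak cut to its middle 1 kb, a setting chosen after seeing the data, H3K4me1 lay at 15 members in mouse and 13 in pig, at 12 and 9 ligands, at 3 and 4 receptors, at 7 members in both species and 8 in mouse alone, and H3K4me3 at 7 in pig alone. The cause of these shifts was not tested. A 200 bp overlap, the stricter E value of 1e-20, a flank of 250 kb, distal peaks overlapping H3K4me3 and a distal window of 2.5 kb left every count they bear on within 1.5 times. The counts of H3K4me1 at starts, of distal peaks and of H3K4me3 in 1 species alone each moved under several settings. H3K27ac at starts was lower in both species with the 5′ end alone, at 13 members and 8 ligands in pig. Depth is unknown and limits every absence of a peak.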
